A study of Mus musculus with 8 samples.

Results

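The enzymes that cut and finish peptide hormone precursors were examined in the small intestine of mouse embryos, in 4 control samples and 4 samples labelled as lacking Rfx6 in the endocrine lineage. The 9 genes were Pcsk1, Pcsk2, Pcsk5, Pcsk6, Furin, Cpe, Cpd, Pam and Qpct, and every non-control probe that carried one of these names in the array files was taken. They are 9 of the 25360 gene names with a tested probe. Together they have 14 of the 55681 probes of the array, and all 14 were among the 35472 bright enough to be tested. Whole small intestine was collected at E18.5, shortly before birth, and its RNA was hybridised to 8 single-colour Agilent arrays, 1 per sample. The product of Rfx6 is a transcription factor that endocrine cells of the gut and pancreas need.

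By the labels, control replicates 1, 3 and 4 were Rfx6 fl/+ and control replicate 2 was Rfx6 fl/fl, where fl is an allele flanked by sites for the Cre recombinase. The 4 mutants were Rfx6 fl/fl Ngn3-cre, with Cre driven by Ngn3, a gene of endocrine progenitors. Only the mutants are labelled as carrying Cre, so Cre itself and the loss of Rfx6 cannot be told apart. The labels do not say which exons were flanked, whether each sample was 1 embryo, or how samples were shared among litters, so p-values measure the spread between these samples. In the descriptions of mutant replicates 2, 3 and 4 other Rfx genes are named, and the group was taken from titles and source names, which say Rfx6. Replicates are called control 1 to 4 and mutant 1 to 4 below, and the numbers were not treated as pairs.

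Peptide hormones are made as longer precursors. In the secretory pathway proprotein convertases cut the precursor after basic residues, carboxypeptidases trim those residues from the new end, and some products are then amidated at the C terminus or closed to pyroglutamate at the N terminus. Pcsk1 and Pcsk2 act mainly in the granules of endocrine cells and neurons, while Furin, Pcsk5, Pcsk6 and Cpd work in many cell types and also mature growth factors and receptors. In the gut wall such enzymes are therefore not limited to the endocrine cells, which are a small share of the tissue.

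Levels are log2 processed intensities minus the log2 of the 75th percentile of the same array, and differences are mutant minus control. A level can be compared between arrays for 1 probe, not between probes. That percentile was 788 to 1027, and each array had 59.7% to 69.9% of its probes well above background. Mutant 1 stood apart: it correlated with the other arrays at a mean r of 0.975, where each of those had 0.989 to 0.990, and 42.1% of all tested probes were brighter on it than on the remaining 7. The same share was 5.77% to 14% for any other array. Mutant 1 was extreme in the other direction too, with 23.3% of tested probes dimmer on it than on the remaining 7, against 6.29% to 14.4% for any other array. The Rfx6 probe read -3.32, -3.20, -3.48 and -2.93 in controls and -5.52, -3.37, -3.02 and -3.02 in mutants 1 to 4 (difference -0.50, SE 0.52, limma adjusted p = 0.828). It was not well above background on mutant 1, and it does not check the labels, since its place relative to the deleted part is not known here. The marker genes of the tissue were present, with 11 of 11 enterocyte genes and 12 of 12 smooth muscle and mesenchyme genes well above background on all 8 arrays.

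None of the 14 probes of the processing enzymes passed an adjusted p of 0.05 in limma. Over all tested probes 15 passed, which is 0.0423%. At an unadjusted p under 0.05 there was 1 of the 14, the Pam probe, and 5.05% of all tested probes. The groups overlapped for all 14 probes, and they did not overlap for 4.38% of all probes. The mutant mean was higher for 10 probes and lower for 4, with a median difference of 0.05, beside 0.02 over all tested probes. Without mutant 1 the count was 7 higher and 7 lower, with a median of -0.01. For the 13 probes other than Pam the differences ran from -0.08 to 0.23, and their 95% intervals lay between -0.54 and 0.59. Those bounds stand for a level 1.45-fold lower and 1.5-fold higher, so that a change of 2-fold lay outside the interval of each of the 13 probes. In whole tissue, fewer cells of a type and less RNA per cell cannot be told apart.

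**Figure D1:**
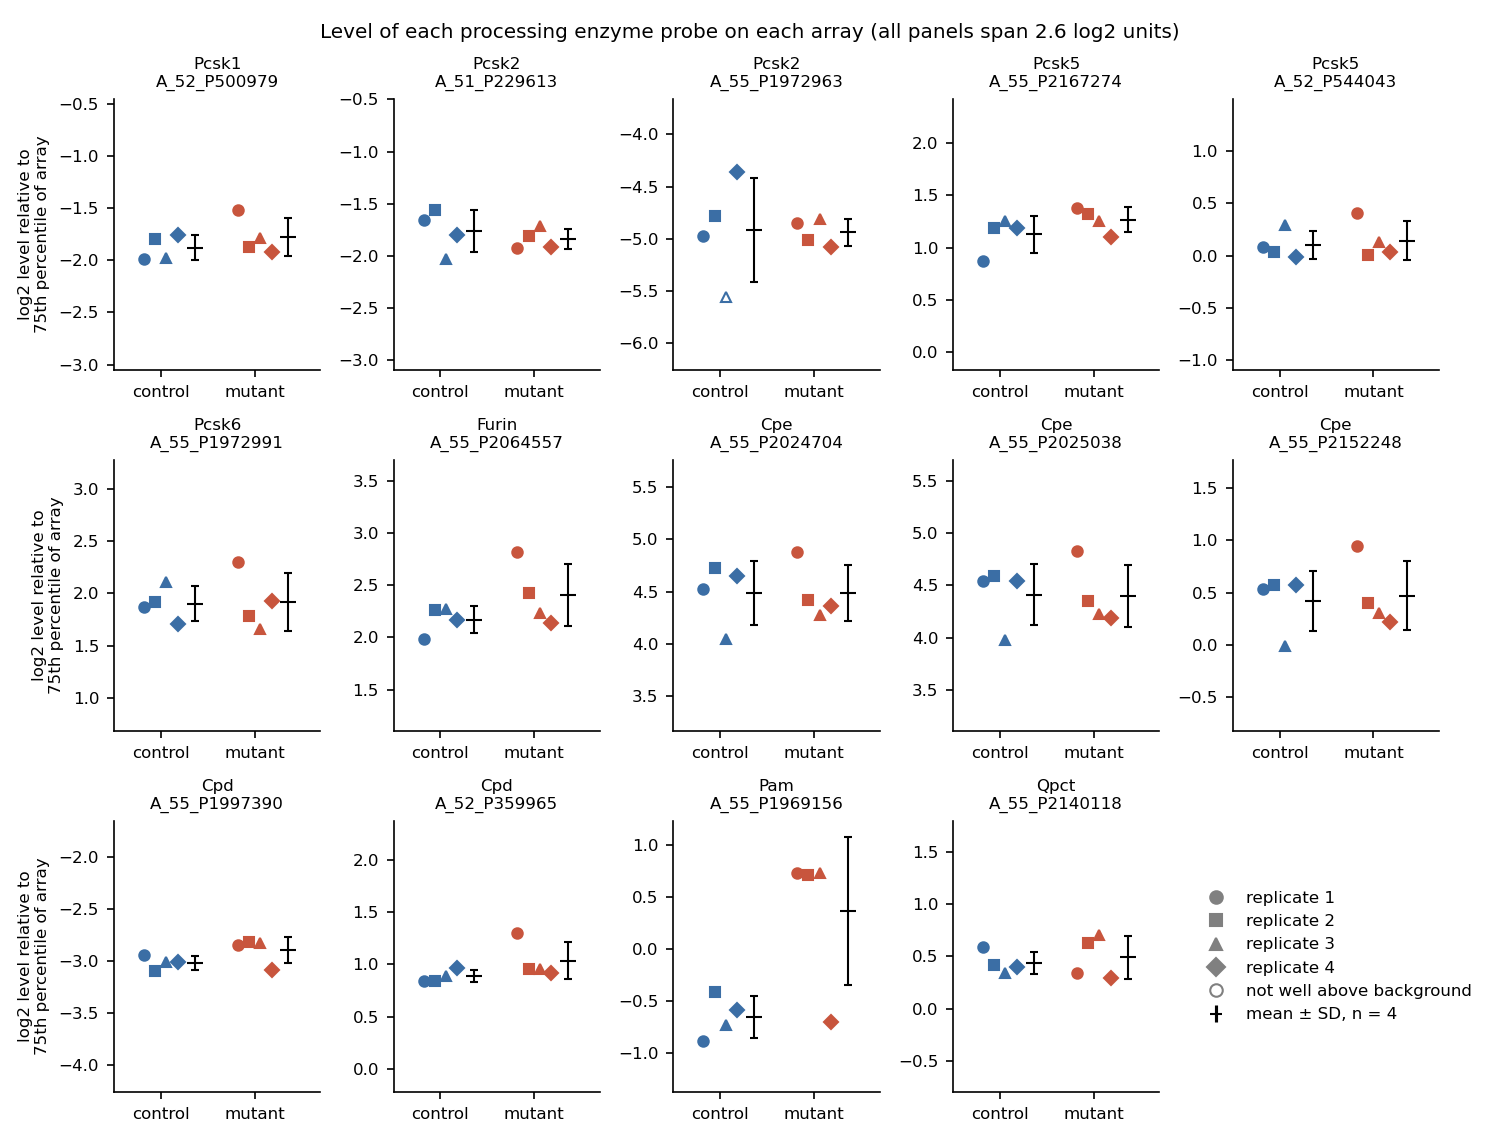
Each panel plots 1 probe, with the log2 level (75th percentile of the array = 0) on the vertical axis and the 4 control (blue) and 4 mutant (red) arrays side by side, the symbol giving the replicate and the black bar the mean ± SD (n = 4). The groups overlap in all 14 panels, mutant 1 is the top array of all 8 in 10 of them, and the widest gap within a group is that of the Pam probe, with 3 mutants near 0.7 and mutant 4 at -0.70.

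Pcsk1 encodes the convertase PC1/3, which in intestinal endocrine cells releases GLP-1 from proglucagon and acts on other hormone precursors. Its probe, A_52_P500979 (chr13:75269727-75269786, mm9, plus strand), is the only 1 for the gene. Its level was -1.99, -1.79, -1.98 and -1.76 in controls 1 to 4 and -1.52, -1.87, -1.79 and -1.92 in mutants 1 to 4. Mutant 1 was the highest array, and mutants 2, 3 and 4 lay within the range of the controls. The means were -1.88 ± 0.12 and -1.78 ± 0.18 (SD, n = 4 each), a difference of 0.11 (SE 0.12, 95% interval -0.16 to 0.37, limma adjusted p = 0.836). Without mutant 1 the difference was 0.02.

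Some probes are printed here for features of their sequence, and no exon annotation was used to place them. The first 41 bases of the Pcsk1 probe and the whole of 1 Pcsk5 probe run into a TAA triplet, in capitals, that closes the reading frame open before it. The other Pcsk5 probe lies further upstream in the gene. The Cpe and Cpd probes shown keep an open frame throughout. Other probes of the set do so too, among them that of Pam, so an open frame does not place a probe in coding sequence. Sequences are those of the array files, 5′ to 3′.
Pcsk1 A_52_P500979: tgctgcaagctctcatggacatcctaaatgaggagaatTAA
Pcsk5 A_55_P2167274: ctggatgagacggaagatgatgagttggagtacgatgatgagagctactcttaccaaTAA
Pcsk5 A_52_P544043: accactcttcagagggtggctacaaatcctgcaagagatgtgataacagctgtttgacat
Cpe A_55_P2152248: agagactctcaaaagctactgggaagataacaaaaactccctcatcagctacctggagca
Cpd A_52_P359965: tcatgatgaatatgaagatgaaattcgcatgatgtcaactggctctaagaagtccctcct

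Pcsk2 encodes PC2, the convertase that makes glucagon in pancreatic alpha cells and also acts in neurons. Its brighter probe, A_51_P229613 (chr2:143639649-143639708, plus strand), read -1.65, -1.56, -2.03 and -1.80 in controls 1 to 4 and -1.92, -1.81, -1.71 and -1.91 in mutants 1 to 4. All 4 mutants lay inside the range of the controls, which was set by control 2 at the top and control 3 at the bottom. The difference was -0.08 (SE 0.12, 95% interval -0.35 to 0.20, limma adjusted p = 0.872). The second probe, A_55_P1972963 (chr2:143641856-143641915), was dim, and on control 3 it was not well above background. It read -4.97, -4.78, -5.56 and -4.36 in controls and -4.84, -5.01, -4.81 and -5.08 in mutants. Its difference was -0.02, with the wider 95% interval of -0.54 to 0.50 (SE 0.23, limma adjusted p = 0.985), and its controls spread over 1.19 log2 units against 0.27 for the mutants.

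Furin encodes the convertase of the trans-Golgi network that matures many growth factors and receptors. Its probe A_55_P2064557 (chr7:87534082-87534141, minus strand) read 1.99, 2.26, 2.27 and 2.17 in controls 1 to 4 and 2.81, 2.42, 2.24 and 2.14 in mutants 1 to 4. Mutants 1 and 2 were above all controls, and mutants 3 and 4 lay among them. The difference of 0.23 (SE 0.16, 95% interval -0.12 to 0.59, limma adjusted p = 0.828) was the largest among the 13 probes other than Pam. It was 0.50 in the slide row that held mutants 1 and 2 and -0.03 in the row that held mutants 3 and 4, with 2 controls in each row. Without mutant 1 it was 0.10. The part of that array in the difference was not tested.

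Pcsk5 and Pcsk6 encode PC5/6 and PACE4, convertases of many tissues that act on precursors of the TGF-beta family among others. The 2 probes of Pcsk5 read different parts of the gene. A_55_P2167274 (chr19:17507883-17507942, minus strand), the one that ends at the TAA, read 0.87, 1.18, 1.26 and 1.19 in controls and 1.38, 1.32, 1.26 and 1.1 in mutants (difference 0.14, SE 0.12, 95% interval -0.13 to 0.40, limma adjusted p = 0.828). Control 1 was the low array there, and mutants 1 and 2 were above all controls. A_52_P544043 spans 872 genomic bases (chr19:17638365-17639236), more than its 60 bases, so its target is split in the genome. It read 0.08, 0.03, 0.29 and -0.01 in controls and 0.41, 0.00, 0.13 and 0.03 in mutants (difference 0.04, SE 0.12, 95% interval -0.23 to 0.32, limma adjusted p = 0.930). Both Pcsk5 probes had mutant 1 as the highest array, and neither separated the groups. The single Pcsk6 probe, A_55_P1972991 (chr7:73195141-73195200, plus strand), read 1.87, 1.92, 2.11 and 1.70 in controls and 2.30, 1.79, 1.66 and 1.93 in mutants. Its mutants held both the highest array, mutant 1, and the lowest, mutant 3, and the difference was 0.02 (SE 0.15, 95% interval -0.33 to 0.37, limma adjusted p = 0.980).

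**Figure D2:**
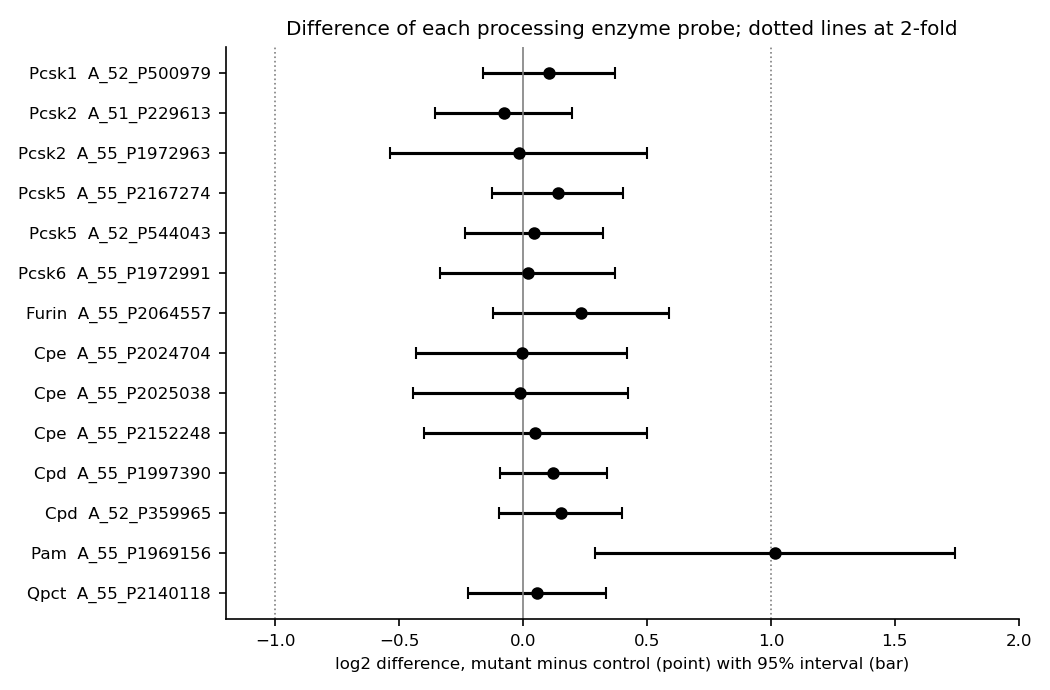
Points give the log2 difference, mutant minus control, of each of the 14 probes, bars the 95% interval from limma (n = 4 per group), and dotted lines a 2-fold difference in either direction. The interval of 13 probes lies between the dotted lines and includes 0, while that of the Pam probe runs from 0.29 to 1.74.

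Cpe encodes carboxypeptidase E, which removes the basic residues left by the granule convertases in endocrine cells and neurons. Its 3 probes lie on the minus strand of chromosome 8. A_55_P2024704 (chr8:67071349-67071408) and A_55_P2025038 (chr8:67071401-67071460) share 8 bases, and A_55_P2152248 (chr8:67085401-67085460) lies apart from them. The first read 4.53, 4.73, 4.05 and 4.65 in controls 1 to 4 and 4.88, 4.42, 4.28 and 4.37 in mutants 1 to 4. The second read 4.54, 4.59, 3.97 and 4.54 in controls and 4.83, 4.35, 4.23 and 4.19 in mutants. The third read 0.54, 0.58, -0.01 and 0.57 in controls and 0.95, 0.40, 0.30 and 0.22 in mutants. On all 3 probes control 3 was the lowest of the 8 arrays and mutant 1 the highest, and mutants 2, 3 and 4 lay between control 3 and the other controls. The 3 probes read 1 transcript and are not replicates of each other. Their differences were -0.01, -0.01 and 0.05, with 95% intervals from -0.44 at the lowest bound to 0.50 at the highest (limma adjusted p = 0.995, 0.990 and 0.954). Without control 3 they were -0.15, -0.16 and -0.09, and without mutant 1 they were -0.14, -0.15 and -0.11, none past the threshold.

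The array that was low in Cpe was also low in genes of neurons, glia and muscle, and in many but not all granule genes. Control 3 was the lowest control for 16 of 16 enteric neuron and glia genes and for 11 of 12 smooth muscle and mesenchyme genes, against 26.4% of all tested genes. It was also the lowest control for 11 of 13 neuropeptide and granin genes and 10 of 14 granule genes of endocrine cells, lists that share genes. Yet it was the highest control for the granule genes Chga (3.82), Chgb (5.09) and Syp (2.33). Among hormone genes it was the lowest control for 2 of 12. The mean level of the enteric neuron and glia list was -0.33, -0.19, -0.87 and -0.25 in controls 1 to 4 and -0.45, -0.36, -0.42 and -0.65 in mutants 1 to 4. That of the smooth muscle and mesenchyme list was 4.99, 5.08, 4.63 and 5.08 in controls and 5.27, 5.06, 4.94 and 4.98 in mutants. Control 3 was at the bottom of both, and mutant 1 at the top of the muscle list only. None of the 16 neuron and glia genes passed the threshold between the groups, and their median difference was 0.02, beside 0.03 over all tested genes. The part of any of these cells in the Cpe levels was not tested.

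**Figure D3:**
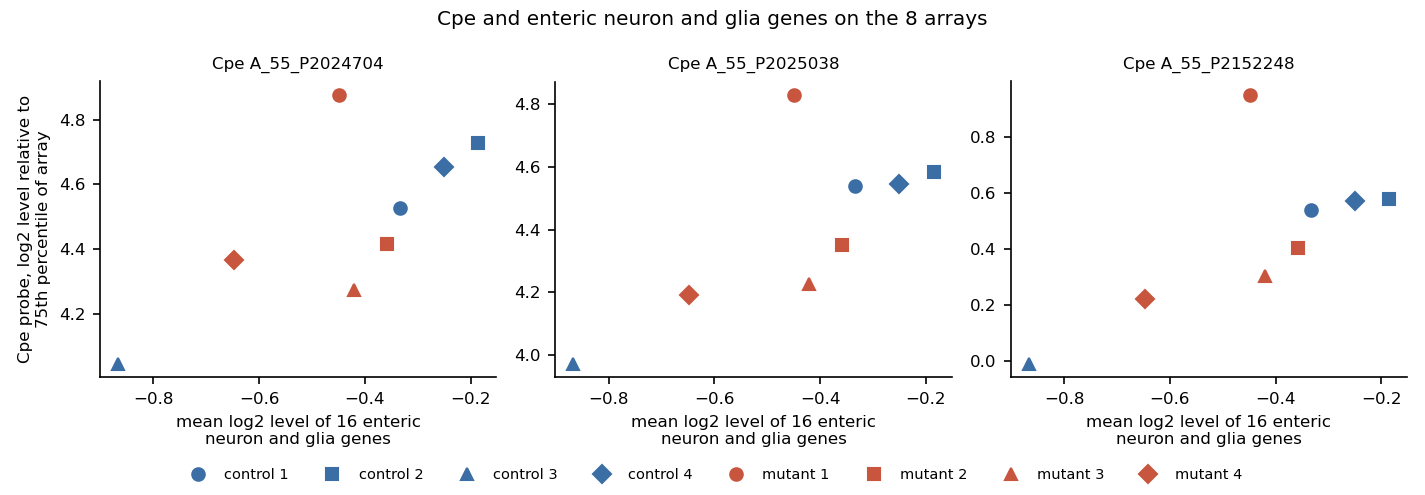
Each panel sets 1 Cpe probe (vertical axis, log2 level, 75th percentile of the array = 0) against the mean log2 level of 16 enteric neuron and glia genes on the same array (horizontal axis), with 1 point per array. Control 3 is at the lower left in all 3 panels, with a list mean of -0.87, and mutant 1 is at the top in all 3 with a list mean of -0.45.

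Cpd encodes carboxypeptidase D, a membrane enzyme of the trans-Golgi network that trims the products of Furin and its relatives. Its brighter probe, A_52_P359965 (chr11:76595750-76595809, minus strand), read 0.84, 0.84, 0.89 and 0.97 in controls 1 to 4 and 1.3, 0.96, 0.96 and 0.92 in mutants 1 to 4. Mutant 1 was above the other 7 arrays, and the other mutants lay within the range of the controls. The difference was 0.15 (SE 0.11, 95% interval -0.10 to 0.40, limma adjusted p = 0.828), and 0.06 without mutant 1. The second probe, A_55_P1997390 (chr11:76590710-76590769), read -2.94, -3.10, -3.01 and -3.01 in controls and -2.85, -2.82, -2.83 and -3.08 in mutants. There 3 of 4 mutants were above all controls and mutant 4 was among them, with a difference of 0.12 (SE 0.10, 95% interval -0.09 to 0.34, limma adjusted p = 0.828).

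Pam encodes the enzyme that turns a C-terminal glycine into the amide that CCK, secretin, gastrin and PYY carry. Its single probe, A_55_P1969156 (chr1:99718052-99718111, minus strand), gave the only difference of at least 2-fold in mean level among the 14 probes, a size reached by 0.739% of all tested probes. It read -0.88, -0.41, -0.73 and -0.58 in controls 1 to 4 and 0.73, 0.71, 0.72 and -0.70 in mutants 1 to 4. Mutants 1, 2 and 3 read 0.71 to 0.73, above all controls, and mutant 4 lay within the controls. The means were -0.65 ± 0.20 and 0.37 ± 0.71 (SD, n = 4 each). The difference was 1.02 (SE 0.32, 95% interval 0.29 to 1.74), which did not pass the threshold (limma adjusted p = 0.828). It was 1.37 in the slide row of mutants 1 and 2 and 0.67 in the row of mutants 3 and 4.

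Whether the Pam probe passed turned on mutant 4. Without that array the difference was 1.37 (SE 0.13) with a limma adjusted p of 0.0240, while 20 probes (0.0564%) passed in all. Over the 19 alternatives the difference was 0.90 to 1.37 and the adjusted p 0.0240 to 0.959, and this was the 1 alternative in which it passed. Leaving an array out because of its value gives no test of the group difference. The titles of the samples end in a number whose meaning the labels do not give: 8, 13, 18 and 21 for controls 1 to 4 and 1, 2, 4 and 19 for mutants 1 to 4. The 3 arrays with the high Pam reading thus had the 3 lowest numbers. The numbers were set beside Pam after its values were seen, and their part was not tested.

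The Pam probe has a simple sequence, and its last 30 bases, all in capitals, hold only G and T.
Pam A_55_P1969156, last 30 bases: TGGTTTTTTGGTTTTGGTTTTGGTTTGGTT
The longest run of G and T in the whole probe was 33 bases. The median over all tested probes was 5, and 45 of 35472 (0.127%) had a run as long as that of Pam. This measure was chosen after the values were seen. Whether other transcripts hold this sequence was not tested, and no second probe of the gene was on the array to compare.

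The 5 tested probes on each side of the Pam probe on chromosome 1 were examined next, a window also chosen after the values were seen. Several of them differed on mutant 1 alone. The Ppip5k2 probe A_55_P2059372 read -2.75 on mutant 1 and -1.39 to -1.29 on the other 7 arrays, and the B230216N24Rik probe read -2.08 on mutant 1 and -0.96 to -0.55 on the others. The second Ppip5k2 probe, A_55_P1978103, read -0.01 on mutant 1 and 1.35 to 1.87 on the other 7 arrays (difference -0.51). The Gin1 probe A_52_P392509, 43.9 kb from the Pam probe, differed on more than 1 mutant. It read -0.18, -0.34, -0.41 and -0.36 in controls 1 to 4 and -1.85, -1.17, -1.16 and -0.67 in mutants 1 to 4. All 4 mutants were below all controls, with mutant 4 the nearest to them, and the difference of -0.89 (SE 0.22) did not pass the threshold (limma adjusted p = 0.649). Groups did not overlap for 4.38% of all tested probes. The other Gin1 probe, A_55_P2078895, 28.8 kb from the Pam probe, read -1.44, -1.66, -1.53 and -1.59 in controls and -2.88, -1.66, -1.77 and -1.58 in mutants. Its difference was -0.42, and mutant 4 lay within the controls on it. The Rnf152 probe, 7459 kb away, read -0.35, -0.64, -0.48 and -0.45 in controls and -1.73, -1.14, -1.005 and -0.56 in mutants. There too mutants 1, 2 and 3 were apart from the controls and mutant 4 was not (difference -0.63, limma adjusted p = 0.828). The remaining neighbours differed little: D1Ertd622e by 0.05, Gm7967 by 0.01, and the probes without a gene symbol by 0.10 each.

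**Figure D4:**
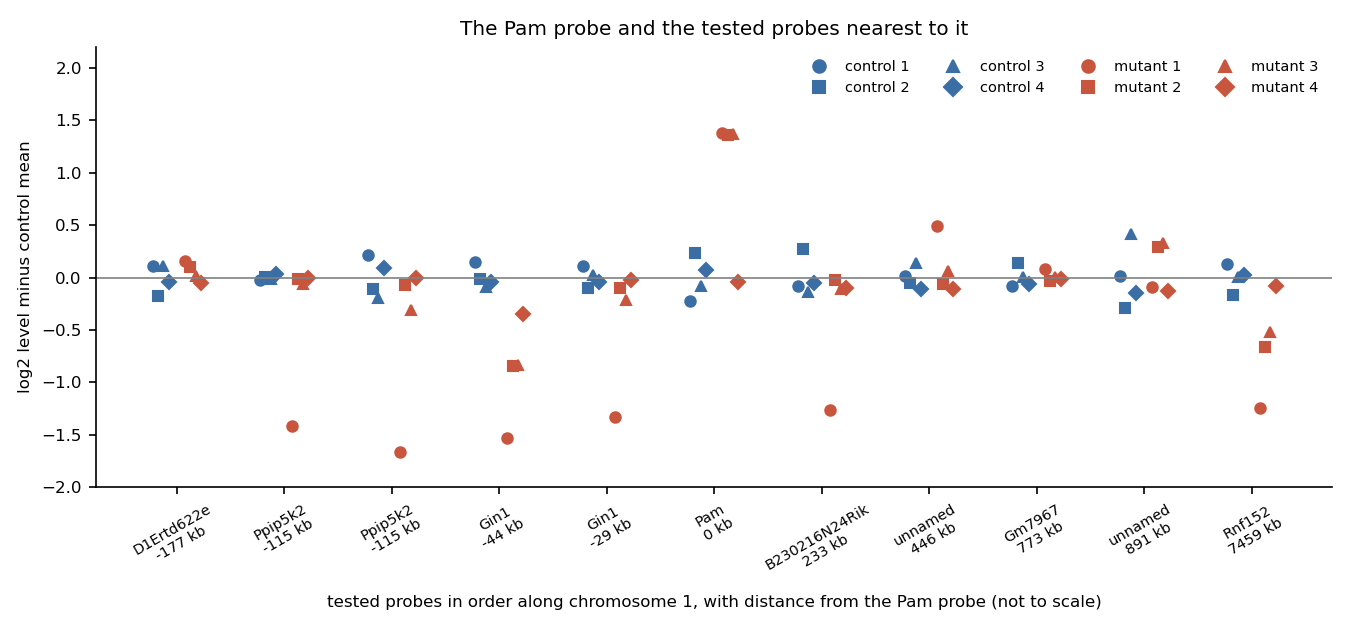
Levels on each array, as log2 difference from the control mean, are plotted for the Pam probe and the 5 tested probes on either side in their order along chromosome 1, with the distance from the Pam probe in kb under each name. The Pam probe has mutants 1, 2 and 3 high and mutant 4 with the controls, 1 Gin1 probe has all 4 mutants low, and several other probes differ on mutant 1 alone.

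Qpct encodes glutaminyl cyclase, which forms the N-terminal pyroglutamate of peptides such as neurotensin and gastrin. Its single probe, A_55_P2140118 (chr17:79489245-79489304, plus strand), read 0.59, 0.41, 0.34 and 0.40 in controls 1 to 4 and 0.34, 0.63, 0.70 and 0.29 in mutants 1 to 4. Mutants 2 and 3 were above all controls and mutant 4 was below all of them. The difference was 0.06 (SE 0.12, 95% interval -0.22 to 0.33, limma adjusted p = 0.912). Unlike most probes of the set, Qpct was not high on mutant 1.

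Across the 14 probes, mutant 1 was the highest array of its group in 10 and above the other 7 arrays in the same 10, and mutant 4 was the lowest mutant in 10. Control 3 was the lowest control in 6 and control 1 in 4. Each of these is a count over probes that share genes and arrays. Over all tested probes mutant 1 was above the other 7 arrays for 42.1%. Control 3 was the lowest control for 26.4% of all tested genes. Such shares are not given here for mutant 4 and control 1, so their counts are no result about the enzymes.

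Other genes of the pathway were taken from lists, 1 probe standing for each gene, namely its brightest tested probe. None of 7 other genes of the carboxypeptidase family passed the threshold, and not all of them encode enzymes for basic residues. Their median difference was 0.07, beside 0.03 over all 25360 genes, of which 15 (0.0591%) passed. The most different of them was Cpb1, a pancreatic enzyme, which read -3.51, -3.71, -2.93 and -3.27 in controls and -2.94, -3.26, -1.9 and -0.23 in mutants (difference 1.28, SE 0.59, limma adjusted p = 0.828). Other genes of pancreatic acinar cells went with it: the mean of the 8 acinar genes tested, Cpb1 included, was -4.22 to -3.21 in controls and -2.56 to -0.32 in mutants. The groups did not overlap for 4 of the 8, all higher in mutants, against 3.04% of all genes, and none passed the threshold. In controls the Cela2a probe was well above background on 0 of 4 arrays, and Pnlip and Prss2 were too dim to be tested. The list mean was highest on mutant 4, at -0.32, the array with the highest Cpb1 reading. The part of pancreatic RNA was not tested.

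Among 12 other enzymes that modify or degrade peptides none passed the threshold (median -0.02), and 1 gene had groups that did not overlap, against 4.66% of all genes. That gene was Mboat4, which encodes the acyltransferase of ghrelin. It read -4.26, -3.98, -4.02 and -3.82 in controls and -5.00, -6.38, -6.48 and -5.22 in mutants (difference -1.75, SE 0.34, limma adjusted p = 0.357). Its probe was well above background on 2 of 4 mutant arrays, so that its level was at least 2.67-fold lower in mutants, taking the dimmest probe above background as the floor on each mutant array. In a broader list of 8 inhibitors and partners none passed (median 0.11). It held Pcsk1n, Scg5, Scg3, Serpina1a, Serpinb8, Spink3, Atp6ap2 and Cst3, not all of which act on convertases. Pcsk1n, the precursor of an inhibitor of PC1/3, had a difference of 0.08, and Scg5, the chaperone of PC2, had 0.01 (SE 0.15 for each). None of the 5 signal peptidase genes, which remove the signal peptide of secreted precursors, passed (median 0.02).

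The precursors that these enzymes cut were counted in the same way. Of 12 hormone precursor genes tested, 8 fell, namely Gip, Ghrl, Sst, Nts, Gcg, Cck, Pyy and Sct, and none rose, with a median difference of -2.11. Over all genes 14 of the 15 that passed were lower, or 0.0552% of those tested. These lists were written with results of these data known, so the count is no independent evidence. The fall was largest for Gip and smallest for Sct, at -0.997 (SE 0.12, limma adjusted p = 0.0477). By the same kind of bound on the group means, which leaves out the spread between samples, Gip was at least 213.5-fold lower. Iapp and Ucn3 had groups that did not overlap and did not pass. Gast (-0.04) and Insl5 (-0.49) overlapped, and the Ppy probe was not tested.

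Precursors made in other cells, or in many, gave other counts. Of 13 neuropeptide and granin genes, which neurons and endocrine cells share, 1 passed and was lower, Scg2, a granin of secretory granules. It read 0.998, 1.05, 0.71 and 0.95 in controls and -0.09, -0.25, -0.36 and -0.09 in mutants (difference -1.13, SE 0.11, limma adjusted p = 0.0172). The median of that list was 0.06, and Tac1, the precursor of substance P, read 0.54 higher without overlap and did not pass. None of 20 growth factor and receptor genes cut by Furin and its relatives passed (median 0.02). Of 14 general genes of endocrine granules, Scg2 again was the 1 that passed, with a median of 0.00 for the list. Scgn had no overlap and did not pass (difference -1.06, limma adjusted p = 0.323), and Chga, a major granule protein, differed by -0.27 (SE 0.14, limma adjusted p = 0.828). Set beside these, 0 of the 9 enzyme genes passed, with a median of 0.11, against 8 of 12 hormone genes, with a median of -2.11. Over all genes 0.0591% passed, so 0 of 9 is near the share of all genes, and the median over all genes was 0.03. Mutant 1 was the highest mutant for 7 of the 9 enzyme genes, against 54.6% of all genes. No test of the contrast between lists was made.

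**Figure D5:**
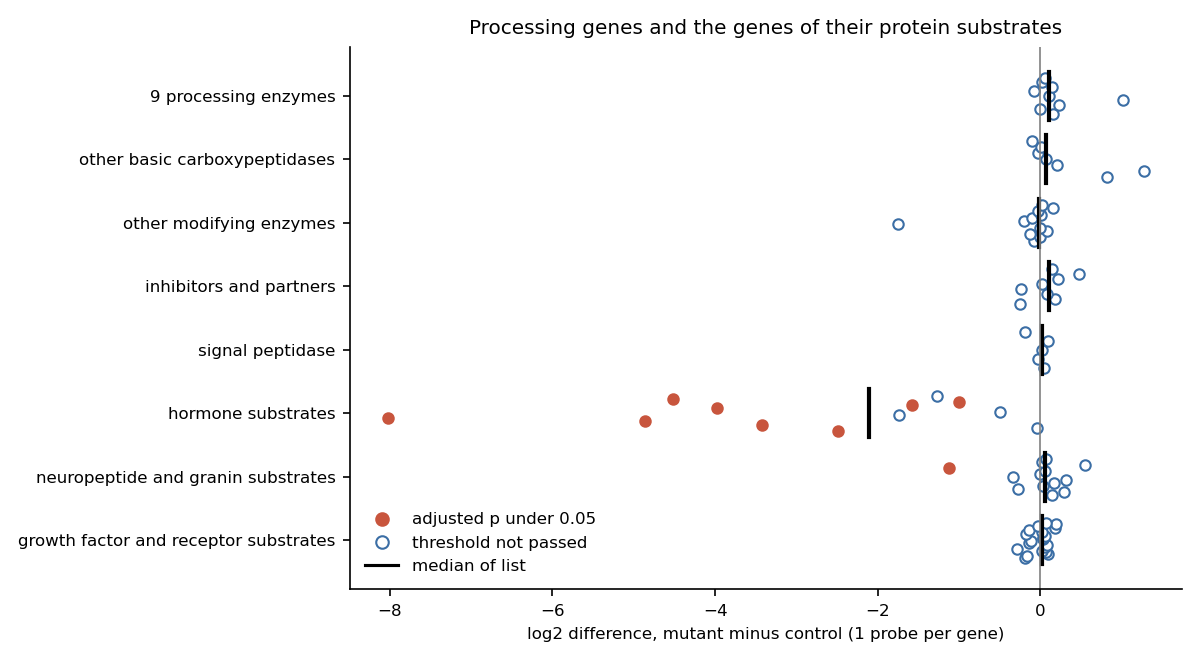
Each point is 1 gene, placed by its log2 difference, mutant minus control, with filled points for an adjusted p under 0.05 in limma, open points for the others and a black line at the median of each list. Of the 8 filled hormone genes 7 lie between -4.86 and -0.997. Gip is drawn at its fitted -8.02, although its probe was well above background on 1 of 4 mutant arrays, so that only the bound in the text holds for it. The 1 other filled point is Scg2, and all 9 processing enzymes are open.

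Genes with the most similar pattern to each enzyme over the arrays were found among 16531 genes by Pearson r, as a description. The points share the arrays, and mutant 1 sets much of the spread, so r was taken over all 8 arrays and over the 7 without it. For Pcsk2, Pcsk5, Pcsk6 and Pam some of the 3 nearest genes were the same in both: Traf6 to Pcsk2 (r = 0.978 and 0.978), Homer3 to Pcsk5 (0.975 and 0.968), Paf1 to Pcsk6 (0.992 and 0.982), and Ube4a (0.983 and 0.978) and BC040756 (0.970 and 0.980) to Pam. For Pcsk1, Cpe, Cpd and Qpct the nearest genes changed when mutant 1 was left out. The nearest to Cpe was Scube1 over 8 arrays (0.989) and Serpini1 over 7 (0.995). The nearest to Pcsk1 were Tcf3 (0.984) and then Marcksl1 (0.979), to Cpd Zfp316 (0.984) and then Zfp781 (0.976), and to Qpct C230071I02Rik (0.974) and then Atic (0.988). None of the genes named here passed the threshold between the groups.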

How the data were processed

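TRI-reagent was used to extract RNA, of which 100 ng was amplified and labelled with cyanine 3, per the labels' protocols. Per the file headers, the authors read 1 slide in 1 scan with Agilent Feature Extraction 10.10.1.1 (design 028005, mm9) and deposited linear spot intensity, background-corrected within each array in its processed form. The authors' series table, also deposited, holds linear intensity whose processing is not given in the sources used here. Its 8 columns share 1 median (123.3), quartiles and maximum, so it was read as normalised between arrays, by a method that stays unknown. Its rank correlation with the scanner values was 0.99997 to 0.99998, and it served as an alternative.

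Values are log2 processed intensity minus the log2 of the array's 75th percentile over non-control spots. This log2 scale was computed here, since the deposited scanner files were not normalised between arrays. Control and outlier spots (117 to 157 per array) were dropped, and spots of 1 probe averaged. No spot was saturated. A probe was tested where at least 50% of its spots were well above background on at least 4 of the 8 arrays, in either group. Groups were compared with limma 3.58.1 (lmFit, then eBayes; R 4.3.3), two-sided and without covariates, with Benjamini-Hochberg adjustment over 35472 probes and a threshold of 0.05, and the script was tested on simulated data. With 4 arrays per group their number limits the precision. Alternatives were other background correction, scaling, filters, array weights, the replicate number or slide row as a block, the deposited table, and each array left out. A bound on a fold sets the bright group's mean against the dim group's mean of, per array, the higher of the probe's own level and the lowest probe well above background. The bound takes no account of the spread between samples.

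The 9 genes and all lists were chosen with earlier results of these data known. Named genes were Rfx6, the 9 enzymes, list genes that passed, genes of the enzyme lists whose groups did not overlap, up to 4 with the largest difference in other lists, and the 3 nearest genes by pattern. Others, among them the neighbours of Pam, Cpb1, Pcsk1n, Scg5, Gast and Insl5, were named after their values were seen, as were the printed sequences and array counts. Coordinates were taken from the array files (mm9), and exon annotation of that build was not used here. The list of further convertases and the genes nearest to Furin are not reported here.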

Additional observations from a re-analysis of the deposited data

Results flagged for a closer look

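Within groups of 4 arrays, 28 groups were examined, 2 for each of the 14 probes. In 5 of them 1 array stood apart from the other 3, where a rate of 1 in 20 would give 1.4. The groups share genes and arrays, so they are not independent. The share of such groups over all tested probes is not given here, so the count is no result about the enzymes. Control 3 was low on Cpe A_55_P2025038, at 3.97 against 4.54 to 4.59 for the other controls, and on Cpe A_55_P2152248, at -0.00912 against 0.538 to 0.577. Mutant 1 was high on Cpd A_52_P359965, at 1.3 against 0.921 to 0.96 for the other mutants. Mutant 4 was low on the other Cpd probe, A_55_P1997390, at -3.08 against -2.85 to -2.82. It was also low on Pam A_55_P1969156, at -0.696 against 0.713 to 0.731.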

How the results depend on the processing

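Over all probes, 15 passed, and the count was 24 with normexp background correction, 42 with array weights, 7 with the replicate number as a block and 9 to 20 with 1 array left out. Among the settings with 1 array left out, the lowest count came without control 2 or without mutant 3 (9 each). Control and mutant arrays of 1 replicate number did not deviate together (r = -0.0865, 0.0904, 0.00313 and 0.0996 for numbers 1 to 4, with 2 of 8 arrays nearest to their own number). With so few arrays this cannot exclude a shared litter, and the main fit used the number as a name only. Under that block 0 enzyme probes passed. Of the enzyme probes 0 passed in every setting except without mutant 4, where 1 (Pam, 1.37) passed, so that leaving out 1 array gave 0 to 1. Differences near 0 changed sign. With array weights these were Pcsk1 (-0.00233), Pcsk5 A_52_P544043 (-0.0157), Pcsk6 (-0.0782) and Cpe A_55_P2152248 (-0.116). With quantile normalisation they were Pcsk6 (-0.00826) and Pcsk2 A_55_P1972963 (0.0448), the latter also with normexp (0.0427) and the deposited table (0.0447). Cpe A_55_P2024704 gave 0.00384 with normexp and 0.01 with median scaling, and Cpe A_55_P2025038 gave 0.00477 with median scaling. With 1 array left out the ranges crossed 0 for Pcsk2 A_55_P1972963 (-0.231 to 0.168), Pcsk5 A_52_P544043 (-0.045 to 0.109), Pcsk6 (-0.108 to 0.105), Cpe A_55_P2024704 (-0.153 to 0.0743), Cpe A_55_P2025038 (-0.157 to 0.0587), Cpe A_55_P2152248 (-0.111 to 0.132) and Qpct (-0.0147 to 0.121). None of these passed the threshold in any setting, and the cause was not tested. A filter for probes above background on all 8 arrays left the second Pcsk2 probe untested, and the setting with 1 probe per gene leaves out the dimmer probes. The second Pcsk2 probe was near background, which limits its precision.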
